A study of Mus musculus with 4 samples.

Results

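The AP-1 and Egr immediate early genes described here are *Fos*, *Fosb*, *Jun*, *Junb*, *Jund*, *Atf3*, *Egr1*, *Ier2* and *Dusp1*. The rule names them by symbol and sets no threshold on a measured value, but they were chosen with earlier results of these data known. They are 9 of the 31053 genes counted. All 9 were found in the 4 libraries. Liver mononuclear cells of C57BL/6 mice aged 8 to 10 weeks were profiled by droplet single-cell RNA sequencing, in which every captured RNA molecule carries a barcode of its cell and a unique molecular identifier (UMI). The Naïve library came from mice that received no Concanavalin A (ConA), a lectin known to activate T cells and to cause acute hepatitis. For the remaining libraries the livers were taken 24 hours after ConA. Beside ConA, the mice of ConA+Veh were given vehicle, those of ConA+TCDD the dioxin TCDD and those of ConA+FICZ, by the label, the compound FICZ. Both compounds are ligands of the aryl hydrocarbon receptor. Vehicle and TCDD were given 1 hour after ConA by the study's methods, which do not describe FICZ, so its dose and its time relative to ConA are not known here. Each condition had 1 library, and the sex and the number of mice behind a library are not given in the sources used here. All 4 suspensions were made by warm enzymatic dissociation of the liver and a Percoll gradient.

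AP-1 is a family of transcription factors built as pairs of basic leucine zipper (bZIP) proteins, in which Jun proteins pair with each other, with Fos proteins or with ATF proteins. *Fos*, *Jun*, *Egr1* and their relatives are called immediate early genes because signals through MAP kinases, and through the factors SRF and CREB, can switch them on within minutes without new protein synthesis, and their RNA decays quickly. They are known to respond to antigen receptors and cytokines in lymphocytes and phagocytes, and also to the handling of tissue while cells are being released from it.

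The files held between 1880 and 2779 cells per library. The Naïve cells held the fewest UMIs, with a median of 2161 UMIs against 3147 to 3984 in the 3 ConA libraries, and they had the highest median share of mitochondrial UMIs, 4.47% against 2.63% to 2.73%. Pairs of libraries shared 4 to 15 cell barcodes. Cells were placed in classes by marker genes, with B, T, NK and mononuclear phagocyte as the main classes, and between 13.0% and 29.0% of the cells of a library entered no class. Values of the 4 libraries are given throughout in the order Naïve, ConA+Veh, ConA+TCDD, then ConA+FICZ. In this order there were 1068, 807, 371 and 756 B cells, 449, 720, 615 and 516 T cells, 128, 229, 160 and 163 NK cells and 58, 190, 33 and 154 mononuclear phagocytes. Hepatocyte markers placed 6, 6, 0 and 182 cells apart as hepatocytes, and *Fos* in those of ConA+FICZ had 3 UMIs. A level is the UMIs of a gene summed over a class, per 1000000 UMIs of that class (CPM). Brackets give 95% intervals, for counting error alone. No difference was tested, because a condition has no second library to give a replicate spread, and effects of the treatment, of the mice and of the library cannot be told apart.

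Of the 9 genes, 7 had a promoter in the RefSeq table of build GRCm38.p6, and 3 of these held a CRE core, the letters TGACGT on either strand, within 250 bases before the start of transcription. CREB and ATF proteins are known to bind sites that contain this core. It was in 6.47% of 32851 promoters of that length. The 200 bases before the start of these 3 members follow, 5′ to 3′ on the strand of the gene and with the core in capitals, since they share a searched motif.
Fos, chr12:85473690-85473889, plus strand: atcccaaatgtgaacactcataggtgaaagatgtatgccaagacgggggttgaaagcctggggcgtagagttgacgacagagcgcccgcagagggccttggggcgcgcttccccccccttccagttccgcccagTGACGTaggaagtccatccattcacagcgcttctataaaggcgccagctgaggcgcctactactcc
Atf3, chr1:191183334-191183533, minus strand: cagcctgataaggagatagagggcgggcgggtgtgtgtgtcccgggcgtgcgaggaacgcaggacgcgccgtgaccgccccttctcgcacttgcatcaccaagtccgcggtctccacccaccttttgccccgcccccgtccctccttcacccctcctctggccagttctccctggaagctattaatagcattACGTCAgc
Dusp1, chr17:26508473-26508672, minus strand: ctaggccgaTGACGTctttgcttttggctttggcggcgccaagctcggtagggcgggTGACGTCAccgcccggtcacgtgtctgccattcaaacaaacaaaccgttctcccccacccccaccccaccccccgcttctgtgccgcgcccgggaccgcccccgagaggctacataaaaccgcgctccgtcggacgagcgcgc
The core began 66 bases before the start in *Fos* and 8 bases before it in *Atf3*. In *Dusp1* it began 191 and 143 bases before the start, and the latter lies in the palindrome TGACGTCA, where matches of both strands overlap. The *Atf3* and *Dusp1* stretches lie within the span of these genes in GENCODE M21, whose longest transcripts start further upstream. By the table, *Jund* starts 1210 bases upstream of its GENCODE start and *Junb* 30, so that the window of *Jund* does not adjoin that gene in GENCODE. No match of the CArG box bound by SRF, of the AP-1 site TGANTCA or of the Egr site GCGTGGGCG was found in the 7 windows, and 1.47%, 6.75% and 0.536% of all promoters held them. Bases beyond the 250 were not searched, so the windows do not show that a gene lacks such a site. *Egr1* and *Ier2* had no promoter in the table.

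The 9 genes together were highest in Naïve in each of the main classes. They made up 6783 (6684 to 6883), 1438 (1404 to 1473), 1315 (1266 to 1366) and 1596 (1559 to 1635) CPM in B cells. In T cells the sums were 5919.7, 1376, 1259.99 and 1407 CPM. NK cells gave 7112, 3338, 3336 and 4495 CPM, and mononuclear phagocytes 7277, 3549.96, 2371 and 3798. The Naïve level was 4.72 times that of ConA+Veh in B cells, 4.30 times in T cells, 2.13 times in NK cells and 2.05 times in mononuclear phagocytes. In every ConA library the B and T cells lay below the NK cells and the mononuclear phagocytes. In these classes a lower level per class cannot be told apart from a change in which cells make it up.

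**Figure D1:**
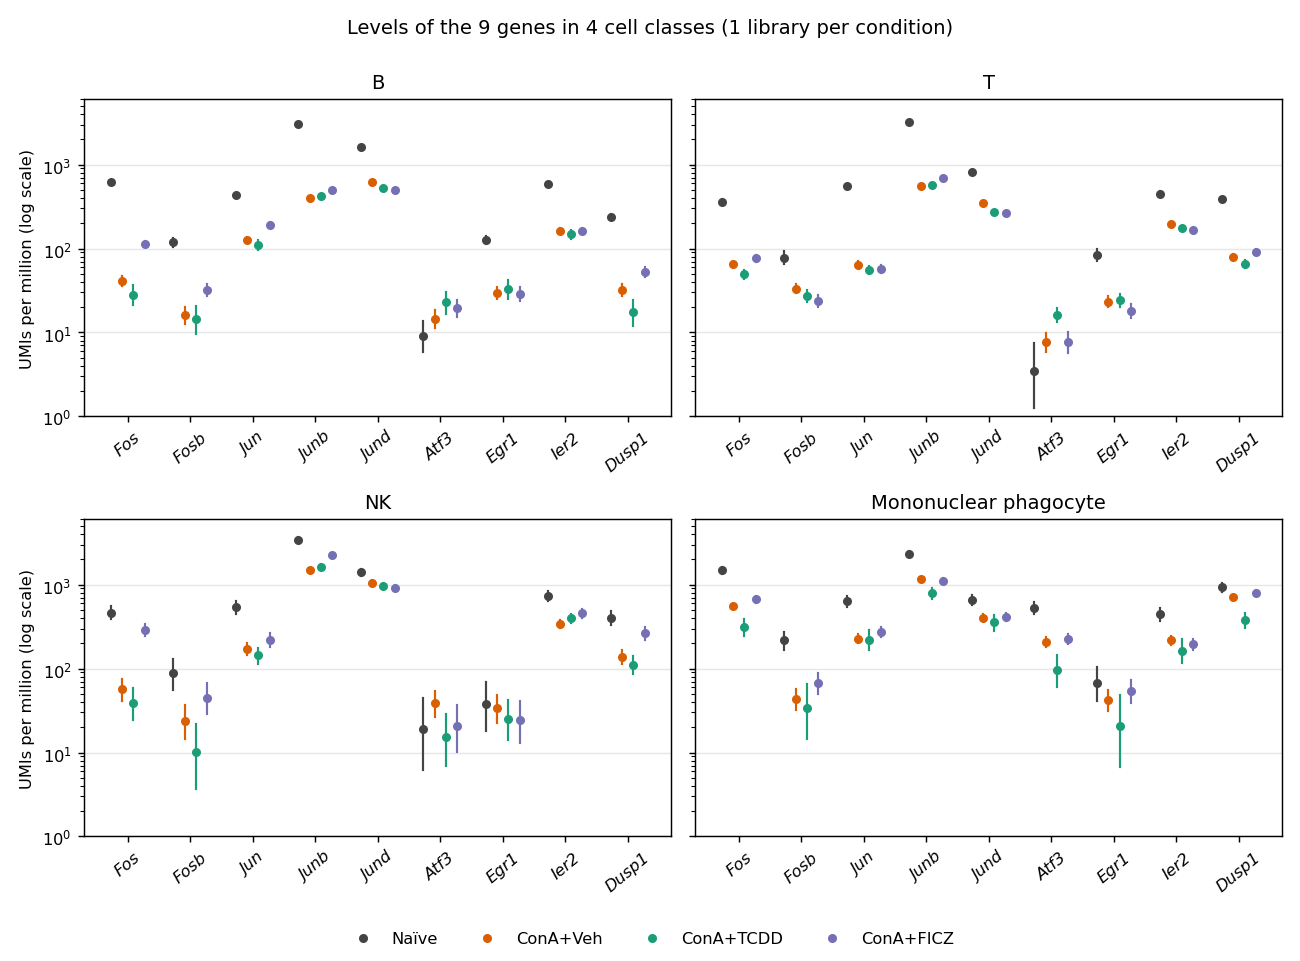
Levels of the 9 genes in the 4 main classes, in CPM of the class on a log scale, with 1 point for each library and lines for 95% counting intervals. The Naïve points lie above the 3 ConA points for most genes, as for *Junb* in B cells at 3022 against 396 to 494 CPM, while *Atf3* in B, T and NK cells does not follow this pattern.

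*Fos* encodes the founding partner of Jun in AP-1. Its levels in B cells were 612 (583 to 643), 40.9 (35.3 to 47.2), 28.2 (21.4 to 36.6) and 113 (103 to 124) CPM. T cells held 358, 64.9, 49.1 and 76.6 CPM and NK cells 465, 56.5, 38.8 and 290.1. Naïve was the highest library in each of these lymphocyte classes, and ConA+FICZ came next. In mononuclear phagocytes *Fos* was 1474, 549.99, 314 and 665 CPM, so that every library had more *Fos* there than in its lymphocytes, with intervals that did not overlap. Within Naïve the order was mononuclear phagocytes, B cells at 612 (583 to 643), NK cells at 465 (386 to 555) and T cells at 358 (331 to 388), where the intervals of NK and T cells touched at their ends. The log2 ratio of ConA+Veh over Naïve was -3.90 (-4.13 to -3.68) in B cells, -2.47 (-2.64 to -2.29) in T cells, -3.04 (-3.56 to -2.54) in NK cells and -1.42 (-1.60 to -1.24) in mononuclear phagocytes. Erythroid cells, which should hold little of this RNA of their own, had 0 UMIs of *Fos* in Naïve, which allows up to 89.6 CPM. Those of ConA+Veh held 37.7 (7.78 to 110.3) CPM, from 3 UMIs, and those of ConA+TCDD 8.57 (0.217 to 47.7), from 1. The *Fos* intervals of B, T and NK cells in these 2 ConA libraries overlapped those of the erythroid cells, which rest on few UMIs and are wide. In CPM these levels can thus not be told apart from that background, and the lymphocyte ratios are not read as folds of expression. Erythroid cells of ConA+Veh were shallower, with a median of 1134.5 UMIs, against 4205, 6974.5 and 2760 in B, T and NK cells. Uncorrected for depth, a *Fos* UMI was in 4.69% of them and in 12.4%, 32.4% and 12.2% of those B, T and NK cells. In ConA+TCDD the shares were 1.27% of erythroid cells and 10.8%, 27.8% and 12.5%. A background counted per cell was not tested. The Naïve lymphocytes, and the mononuclear phagocytes of the first 3 libraries, lay above the background with no overlap of intervals.

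*Fosb*, whose protein pairs with Jun proteins in the same way, was 118 (106 to 132), 16.2 (12.8 to 20.4), 14.4 (9.62 to 20.6) and 32.2 (27.1 to 38.1) CPM in B cells. T cells held 77.9, 33.3, 27.2 and 23.7 CPM, NK cells 87.6, 24.0, 10.1 and 44.9, and mononuclear phagocytes 216, 43.7, 33.4 and 66.9. Naïve was again the highest library in each main class, with log2 ratios of ConA+Veh over Naïve of -2.87 in B cells, -1.23 in T cells, -1.87 in NK cells and -2.31 in mononuclear phagocytes. The sign in T cells did not hold under 2 alternatives, since the ratio was 0.22 for mean UMIs per cell uncorrected for depth and 0.20 in cells of 1000 to 4000 UMIs.

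*Jun* encodes c-Jun, the best-known partner of Fos proteins. Its levels were 439 (414 to 465), 127 (117 to 138), 111 (96.5 to 126) and 193 (179.7 to 206) CPM in B cells. T cells held 559, 64.5, 55.6 and 56.9 CPM. Among the members *Jun* differed most between Naïve and ConA+Veh in T cells, with a log2 ratio of -3.11 (-3.27 to -2.96), which is 8.66-fold. In NK cells it was 537, 172, 143 and 221 CPM and in mononuclear phagocytes 636, 227, 222 and 273, with log2 ratios of -1.64 and -1.49. In each class the 3 ConA libraries lay below Naïve with no overlap of intervals.

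*Junb* encodes a Jun protein that is weaker than c-Jun on many AP-1 sites. B cells held 3022 (2956 to 3089.8), 396, 417 and 494 CPM, and T cells 3196 (3112 to 3281), 556, 575 and 699.6. The levels were 3436, 1485, 1636 and 2270.1 in NK cells and 2323, 1151, 790.2 and 1113 in mononuclear phagocytes. The ConA libraries of B and T cells thus lay below those of NK cells, although the Naïve values of these lymphocytes were near each other. The log2 ratio of ConA+Veh over Naïve for *Junb* was -2.93 (-3.01 to -2.86) in B cells, -2.52 (-2.58 to -2.47) in T cells, -1.21 (-1.34 to -1.08) in NK cells and -1.01 (-1.15 to -0.88) in mononuclear phagocytes. *Junb* on chromosome 8 overlaps *Prdx2* on the opposite strand in GENCODE M21, and whether the counting used the strand is not given in the sources used here.

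*Jund* encodes the Jun protein that resting cells are known to keep. Its levels were 1625 (1576 to 1674), 619, 524 and 500.3 CPM in B cells, 806, 351, 270.4 and 266 in T cells, 1398, 1052, 959.8 and 909.5 in NK cells and 656, 404, 355 and 414 in mononuclear phagocytes. Naïve was the highest library in all main classes, but the differences were smaller than for *Junb*. The log2 ratio of ConA+Veh over Naïve was -1.39 (-1.46 to -1.32) in B cells, -1.20 (-1.29 to -1.11) in T cells, -0.41 (-0.59 to -0.23) in NK cells and -0.70 (-0.94 to -0.45) in mononuclear phagocytes, and the sign turned when UMIs per cell were left uncorrected for depth in T cells, at 0.25, and in NK cells, at 0.42.

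*Atf3* encodes a stress-induced ATF protein that represses many of its targets. It stood apart from the other members, since it was scarce in lymphocytes and not highest in Naïve there. The 24 UMIs in Naïve B cells and those of the other libraries gave 9.17 (5.87 to 13.6), 14.5 (11.2 to 18.4), 22.8 (16.7 to 30.4) and 19.4 (15.5 to 24.1) CPM. In T cells *Atf3* was 3.46 (1.27 to 7.54), 7.63 (5.80 to 9.87), 16.3 (13.2 to 19.8) and 7.68 (5.66 to 10.2) CPM, with ConA+TCDD the highest, and the Naïve value rests on 6 UMIs. NK cells held 19.0, 38.4, 15.2 and 20.6 CPM. In Naïve, ConA+Veh and ConA+TCDD these lymphocyte intervals reached those of the erythroid cells, which held 0 UMIs of *Atf3*. In mononuclear phagocytes Naïve was the highest library, and *Atf3* was 524 (445 to 613), 206 (181 to 235), 96.2 (61.0 to 144) and 226 (194 to 261) CPM. The log2 ratio of ConA+Veh over Naïve was 0.66 (-0.03 to 1.40) in B cells, 1.14 (-0.07 to 2.64) in T cells, 1.01 (-0.36 to 2.73) in NK cells and -1.35 (-1.65 to -1.04) in mononuclear phagocytes, and the last of these alone has an interval away from 0.

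*Egr1* encodes a zinc finger factor that is induced beside *Fos* by MAP kinase signals. B cells held 126 (113 to 140.4), 29.5, 32.7 and 28.9 CPM, and T cells 83.7 (70.6 to 98.5), 23.2, 24.1 and 18.1. The 3 ConA libraries lay below Naïve in both, and the log2 ratios were -2.10 (-2.40 to -1.81) and -1.85 (-2.18 to -1.53) for ConA+Veh in B and T cells. In NK cells *Egr1* was 38.1 (18.3 to 70.1), 33.6, 25.3 and 24.3 CPM and in mononuclear phagocytes 67.6 (41.3 to 104), 42.0, 20.9 and 54.3. There the intervals of Naïve and ConA+Veh overlapped, with log2 ratios of -0.18 (-1.26 to 1.03) and -0.69 (-1.47 to 0.14), and the sign of both turned under alternatives. The ratio in NK cells was 0.65 uncorrected for depth, and that in mononuclear phagocytes was 1.97 with cells thinned to 1000 UMIs and 2.26 in cells of 1000 to 4000 UMIs.

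*Ier2* encodes a small nuclear protein of the immediate early response. Its levels were 593 (564 to 623), 163, 148 and 163 CPM in B cells, 450.2, 198, 177 and 167 in T cells, 731, 339, 396 and 453 in NK cells and 446, 216, 163 and 194 in mononuclear phagocytes. Naïve was the highest library in all of them. The log2 ratio of ConA+Veh over Naïve was -1.86 in B cells, -1.19 in T cells, -1.11 in NK cells and -1.05 in mononuclear phagocytes, a smaller range than that of *Fos*, and it was 0.26 in T cells when UMIs per cell were left uncorrected for depth.

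*Dusp1* encodes a phosphatase that inactivates MAP kinases and so acts as feedback on the signal that induces the family. B cells held 238 (219.7 to 257), 32.5 (27.5 to 38.1), 17.3 (12.1 to 24.1) and 52.4 (45.7 to 59.8) CPM. T cells held 386, 78.4, 65.7 and 91.5 CPM and NK cells 399.97, 137, 111 and 262. From high to low, the libraries followed the order Naïve, ConA+FICZ, ConA+Veh, then ConA+TCDD in these 3 classes, as for *Fos*. Mononuclear phagocytes held 933 (826 to 1050.2), 709.8 (661 to 761), 376 (303 to 463) and 792 (732 to 857) CPM, with overlap between Naïve and ConA+FICZ. There *Dusp1* had its smallest log2 ratio of ConA+Veh over Naïve, -0.39 (-0.59 to -0.19), against -2.87 in B cells, -2.30 in T cells and -1.55 in NK cells. The ratio in mononuclear phagocytes was 0.29 with cells thinned to 1000 UMIs and 0.58 in cells of 1000 to 4000 UMIs, so that its sign turned.

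The 9 genes and 4 main classes made 36 pairs, each with at least 20 UMIs in the 2 libraries compared together. ConA+Veh was below Naïve in 33 pairs, with 8, 8, 8 and 9 of 9 members in B, T and NK cells and mononuclear phagocytes, where 63.1%, 56%, 58.1% and 50.8% of all genes with as many UMIs were. It was below Naïve by 2-fold or more in 28 pairs. It was above Naïve by 2-fold or more in 2 pairs, *Atf3* in T and in NK cells. In B cells 8 of 9 members were lower by that fold, where 19.3% of 9420 genes were, and 0 were higher, where 8.17% were. T cells had 8 lower and 1 higher beside 14.1% and 9.18% of 9864 genes. In NK cells 6 were lower and 1 higher beside 14.1% and 8.38% of 5677 genes, and in mononuclear phagocytes 6 were lower and 0 higher beside 9.33% and 8.55% of 6377 genes. The median log2 ratio of the members was -2.10 in B cells, -1.85 in T cells, -1.21 in NK cells and -1.05 in mononuclear phagocytes, and over all genes it was -0.29, -0.13, -0.15 and -0.01. The intervals of 1, 3, 3 and 1 of 9 members in these classes reached those of the erythroid cells in Naïve, against 6, 5, 4 and 3 in ConA+Veh and 6, 7, 5 and 3 in ConA+TCDD, and ConA+FICZ held 6 erythroid cells, too few for this. In ConA+Veh they were *Fos*, *Fosb*, *Egr1* and *Atf3* in B, T and NK cells, with *Jund* in B and T cells and *Dusp1* in B cells. In mononuclear phagocytes of ConA+Veh they were *Fosb*, *Jund* and *Egr1*. Erythroid cells of ConA+Veh held *Jund* at 440 (307 to 612) CPM, from 35 UMIs, but *Junb* at 37.7, from 3. Over all cells of that library *Junb* was the higher, at 637 against 481 CPM. Whether erythroid cells make *Jund* of their own was not tested, so its overlap is not read as background in the other classes.

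Cells of Naïve and ConA+Veh differed in their UMIs, with medians of 2135 and 4205 in B cells, 2832 and 6974.5 in T cells, 1783.5 and 2760 in NK cells and 3561 and 3779.5 in mononuclear phagocytes. Depth of sequencing and RNA per cell cannot be told apart here. As mean UMIs per cell, uncorrected for depth, 13 pairs in place of 28 were lower by 2-fold. These were 4, 3, 2 and 4 of 9 members in the 4 classes, where 1.84%, 0.933%, 1.92% and 5.94% of all genes were. That scale moved the median of all genes upward by 1.22, 1.45, 0.83 and 0.21 in B, T and NK cells and mononuclear phagocytes, to 0.93, 1.32, 0.68 and 0.20. The members' medians became -0.87, -0.40, -0.38 and -0.84, which lie below those of all genes on this scale too.

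**Figure D2:**
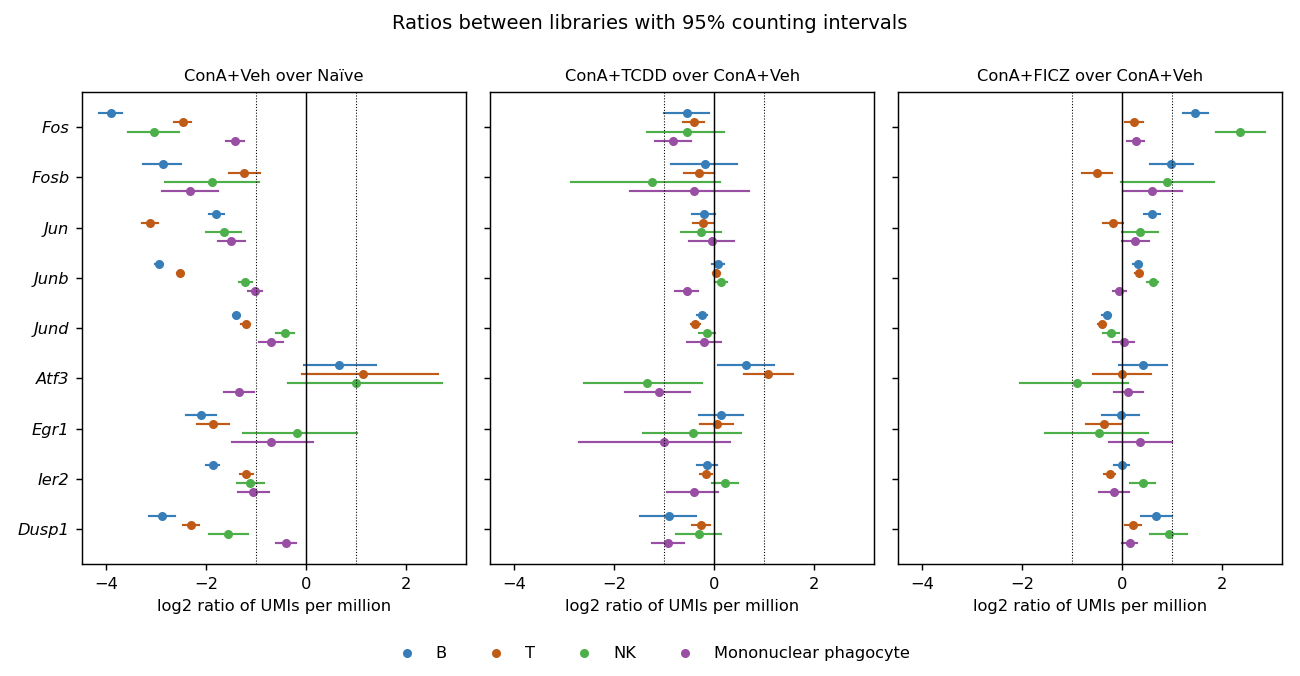
Log2 ratio of the level, in CPM, between libraries for each of the 9 genes, with points for the 4 main classes, lines for 95% counting intervals and dotted lines at 2-fold. Points of ConA+Veh over Naïve lie below 0 in 33 of 36 pairs, those of ConA+TCDD over ConA+Veh lie below 0 in 28 and those of ConA+FICZ over ConA+Veh above 0 in 24, with *Fos* in B and NK cells above the upper dotted line for ConA+FICZ.

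T cells were split by UMIs of *Cd4* and the CD8 genes. The 9 genes summed to 3886, 1103, 1016 and 1136 CPM in CD8 T cells, to 5823, 1416, 1239.5 and 1438.5 in CD4 T cells and to 8478, 2215, 1727 and 2116 in T cells with a UMI of neither. In each library the last group was the highest and the CD8 T cells the lowest. The Naïve level was 3.52, 4.11 and 3.83 times that of ConA+Veh in the 3 groups. *Jun* was 365, 475 and 833 CPM in the CD8, CD4 and remaining T cells of Naïve and 60.7, 39.4 and 116 in those of ConA+Veh. *Fosb* in CD8 T cells was 22.0 (12.3 to 36.3) CPM in Naïve and 34.4 (28.9 to 40.5) in ConA+Veh, with overlapping intervals, whereas CD4 T cells held 75.0 (48.0 to 112) and 29.0 (20.6 to 39.6). A cell without a UMI of *Cd4* or the CD8 genes may still express them.

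Mononuclear phagocytes differed in makeup between the libraries. Cells with a UMI of a *C1q* gene, which encode parts of a complement protein made by tissue macrophages, were 11 of 58 in Naïve, 147 of 190 in ConA+Veh, 19 of 33 in ConA+TCDD and 118 of 154 in ConA+FICZ. In the cells without one, the 9 genes summed to 8809 (8392 to 9242), 3049 (2841 to 3267), 1578 (1390.5 to 1783) and 3923 (3571 to 4301) CPM, and the Naïve level was 2.89 times that of ConA+Veh. *Fos* was 1919, 440.4, 197 and 595 CPM in these cells and *Atf3* was 675, 118, 55.5 and 112. In the cells with a *C1q* UMI the sums were 4537 (4140.2 to 4961), 3704 (3576 to 3835), 4043 (3606 to 4518) and 3777 (3632 to 3926), the Naïve level was 1.22 times that of ConA+Veh, and *Fos* was 679, 584, 559 and 677 with overlapping intervals. The cells without *C1q* thus differed more between Naïve and ConA+Veh than those with it, of which Naïve had 11.

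ConA+TCDD and ConA+Veh differed less than ConA+Veh and Naïve. Of the 36 pairs, 28 were lower and 8 higher in ConA+TCDD than in ConA+Veh, with 4 lower and 1 higher by 2-fold or more. The lower ones were 6, 6, 7 and 9 of 9 members in B, T and NK cells and mononuclear phagocytes, where 45.6%, 57.2%, 54% and 53.4% of all genes were lower. In B cells 0 of 9 members were higher and 0 lower by that fold, beside 1.64% and 2.92% of 9061 genes. T cells had 1 higher, *Atf3*, and 0 lower, beside 1.21% and 2.13% of 10211 genes. NK cells had 0 higher and 2 lower, *Fosb* and *Atf3*, beside 1.63% and 3.29% of 6146 genes. Mononuclear phagocytes had 0 higher and 2 lower, *Egr1* and *Atf3*, beside 4.97% and 11.3% of 6155 genes. The interval of *Fosb* in NK cells included 0, at -1.25 (-2.85 to 0.12), from 6 UMIs in ConA+TCDD. So did that of *Egr1* in mononuclear phagocytes, at -1.01, from 5. The members' medians were -0.18, -0.21, -0.30 and -0.54 in B, T and NK cells and mononuclear phagocytes, and those of all genes 0.03, -0.06, -0.04 and -0.05.

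The log2 ratio of ConA+TCDD over ConA+Veh for *Fos* was -0.54 (-0.99 to -0.10) in B cells, -0.40 (-0.62 to -0.19) in T cells, -0.54 (-1.33 to 0.21) in NK cells and -0.81 (-1.18 to -0.46) in mononuclear phagocytes. In B, T and NK cells it compares levels whose intervals overlapped those of erythroid cells, so these values are not read as differences of *Fos*. The value in mononuclear phagocytes spans libraries that differed in the makeup of this class. Phagocytes with a *C1q* UMI held *Fos* at 584 CPM for ConA+Veh against 559 for ConA+TCDD, and the intervals overlapped. Phagocytes without one held 440.4 against 197 CPM, and the intervals did not overlap. The part of makeup in the class value was not tested. *Dusp1* gave -0.91 (-1.48 to -0.37) in B cells, -0.26 (-0.44 to -0.07) in T cells, -0.30 (-0.76 to 0.15) in NK cells and -0.92 (-1.25 to -0.60) in mononuclear phagocytes. Its intervals reached those of the erythroid cells in B cells of both libraries and in T and NK cells of ConA+TCDD. The value in B cells is thus not read as a difference of *Dusp1*. The ratios of *Fos* and *Dusp1* were below 0 in the 4 classes without reaching 2-fold. The intervals in NK cells included 0, and *Dusp1* in T cells was 0.05 in cells of 1000 to 4000 UMIs. *Atf3* lay on both sides, with 1.09 (0.61 to 1.59) in T cells and 0.65 (0.08 to 1.21) in B cells but -1.34 (-2.59 to -0.24) in NK cells and -1.10 (-1.79 to -0.48) in mononuclear phagocytes. In B, T and NK cells of both libraries its intervals reached those of the erythroid cells. These lymphocyte ratios are not read as differences of *Atf3*. Among T cells the CD8 group gave 1.52 (0.65 to 2.45) for *Atf3*, from 17 UMIs in ConA+Veh and 35 in ConA+TCDD. In phagocytes without *C1q* the sum of the 9 genes was 1.93 times as high in ConA+Veh as in ConA+TCDD, and in those with *C1q* the sums of the 2 libraries had overlapping intervals. These groups of ConA+TCDD held 14 and 19 cells.

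ConA+FICZ was above ConA+Veh in 24 of 36 pairs and below it in 12. The pairs above were 7, 4, 6 and 7 of 9 members in B, T and NK cells and mononuclear phagocytes, where 55.4%, 48.2%, 48.1% and 59.1% of all genes were. *Fos* was higher in ConA+FICZ by a log2 ratio of 1.47 (1.22 to 1.72) in B cells and 2.36 (1.88 to 2.86) in NK cells, and by 0.24 (0.05 to 0.42) in T cells and 0.27 (0.10 to 0.44) in mononuclear phagocytes. The first 2 of these are the 2 pairs that were higher by 2-fold or more, and 0 were lower by that fold. The ConA+Veh levels in these ratios for B, T and NK cells had intervals that overlapped that of the erythroid cells. ConA+FICZ hepatocytes held *Fos* at 10.7 (2.20 to 31.2) CPM, below the B and NK cells of that library with no overlap of intervals. *Dusp1* was higher by 0.69 (0.38 to 0.999) in B cells and 0.94 (0.57 to 1.31) in NK cells, and *Fosb* by 0.99 (0.57 to 1.42) and 0.90 (-0.02 to 1.84). The ConA+Veh intervals of *Dusp1* in B cells and of *Fosb* in both classes also reached those of the erythroid cells. *Junb* was higher by 0.61 in NK cells, 0.33 in T cells and 0.32 in B cells. *Jund* lay on the other side in B, T and NK cells, with -0.31, -0.40 and -0.21.

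In B cells 1 member was higher and 0 lower by 2-fold, beside 2.28% and 2.01% of 9512 genes. NK cells had 1 higher and 0 lower beside 2.47% and 4.26% of 6074 genes. T cells had 0 and 0 beside 1.34% and 2.68% of 10207 genes, and mononuclear phagocytes 0 and 0 beside 5.13% and 2.74% of 7112 genes. The members' medians were 0.42, -0.18, 0.42 and 0.16 in B, T and NK cells and mononuclear phagocytes, against 0.04, -0.02, -0.02 and 0.10 over all genes. In cells of 1000 to 4000 UMIs alone, an alternative chosen after the data had been seen, 7 pairs were higher in place of 2. These were 2, 3, 2 and 0 members in the 4 classes, where 3.04%, 3.46%, 3.4% and 7.6% of all genes were. *Fos* was then 1.54 in B cells, 2.56 in NK cells and 1.29 in T cells, but -0.63 in mononuclear phagocytes, and *Jund* in T cells turned to 0.19. The comparisons of TCDD and of FICZ share the ConA+Veh library.

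Neutrophils and endothelial cells were smaller classes, with 24, 93, 35 and 250 and with 42, 67, 7 and 40 cells. In neutrophils the 9 genes summed to 8307 (7533 to 9139.9), 4035 (3784 to 4299), 4299 (3829 to 4811) and 6272 (6079 to 6469) CPM. *Fos* was 1736 (1393 to 2139), 411 (334 to 501), 355 (229.5 to 524) and 999 (923 to 1079.7) CPM, and *Dusp1* was 1657, 696, 667 and 1206. Both followed the same order of libraries as in lymphocytes. *Egr1* in neutrophils, at 513, 386, 525 and 545 CPM, lay above its level in the main classes of the same library, with no overlap of intervals. ConA+FICZ exceeded ConA+Veh for 9 of 9 members in neutrophils, where 61.7% of 3346 genes were higher, and by 2-fold or more for 4, where 12.6% were. These were the members with log2 ratios of 1.28 (0.97 to 1.60) for *Fos*, 1.73 (0.68 to 2.999) for *Fosb*, 1.47 (0.88 to 2.13) for *Jun* and 1.31 (0.34 to 2.43) for *Atf3*. ConA+TCDD exceeded ConA+Veh by 1.70 (0.85 to 2.55) for *Jun* and 2.14 (0.83 to 3.49) for *Atf3*, which had 10 UMIs in ConA+Veh and 13 in ConA+TCDD. An *Atf3* UMI was in 6.45% of the neutrophils of ConA+Veh and 5.71% of those of ConA+TCDD, so this share did not follow the ratio. The interval does not cover UMIs that gather in few cells.

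Endothelial cells did not follow the main classes or the neutrophils. The sum of the 9 genes was 3823 (3499.9 to 4167), 4969.7 (4706 to 5245), 3729 (3006 to 4573) and 3112 (2842 to 3401) CPM, so that ConA+Veh was the highest library. *Egr1* was 193 (126 to 282), 702 (605 to 810.04), 973 (623 to 1447) and 293 (215 to 391) CPM, and ConA+Veh exceeded Naïve by a log2 ratio of 1.87 (1.27 to 2.52). *Fosb* did so by 1.34 (0.43 to 2.37). *Atf3* had 0 UMIs in the Naïve endothelial cells and was 229 (175 to 294) CPM in ConA+Veh. This is 10.3-fold higher when Naïve is set to a floor of 3 UMIs over the class, and the interval of the log2 ratio begins at 3.02. After thinning to 1000 UMIs per cell, the shares of endothelial cells with 3 or more members did not follow the sums, at 46.2% (30.1% to 62.8%) in Naïve and 37.7% (25.6% to 51.0%) in ConA+Veh, and a *Fosb* UMI was in 10.3% and 9.84% of cells. *Egr1* was in 15.4% and 31.1% and *Atf3* in 0%, which allows up to 9.03%, and 11.5%, with overlapping intervals for each of these genes. *Jun*, *Junb*, *Jund*, *Ier2* and *Dusp1* had ratios of -0.03 to 0.21 with intervals that included 0. ConA+FICZ lay below ConA+Veh, with -1.26 for *Egr1* and -1.71 for *Atf3*. The endothelial cells of Naïve differed in their markers from the others. *Clec4g*, a marker of liver sinusoidal endothelium, was 2719, 7.51, 0 and 12.8 CPM, while the general endothelial marker *Cdh5* was 822, 818, 1297 and 867. The part of these markers in the differences of *Egr1*, *Fosb* and *Atf3* was not tested.

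**Figure D3:**
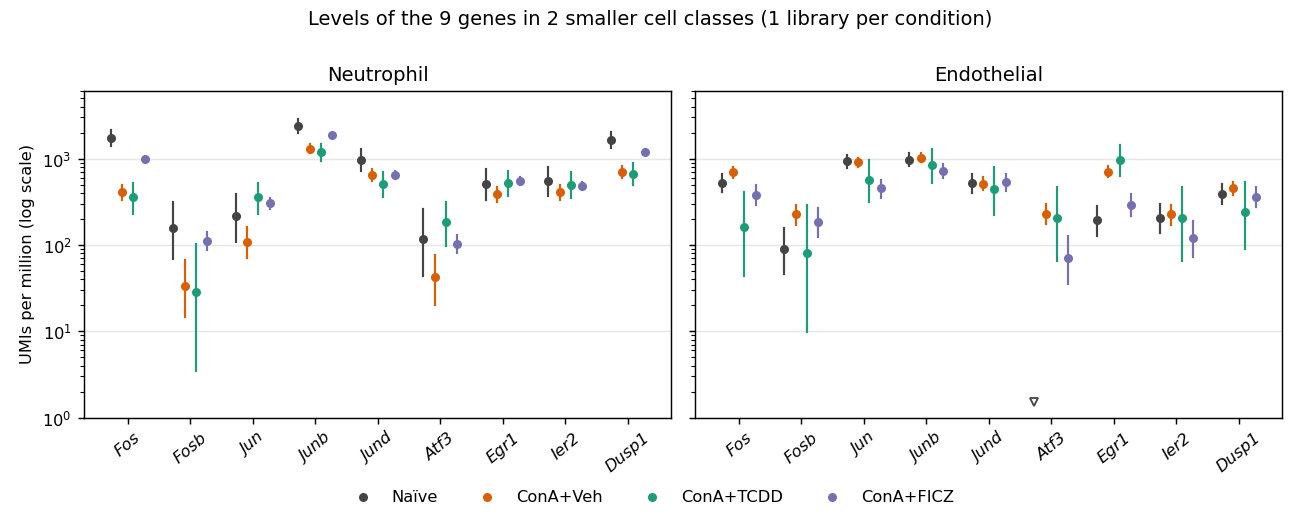
Levels of the 9 genes in neutrophils and endothelial cells, in CPM on a log scale, with 1 point for each library and lines for 95% counting intervals. The open triangle marks 0 UMIs, here *Atf3* in Naïve endothelial cells, and *Egr1* in endothelial cells lies at 193 CPM in Naïve and 702 in ConA+Veh.

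The number of members per cell was counted after each cell had been thinned to 1000 UMIs, which sets all cells to the same depth and leaves out shallower ones. The share of B cells with a UMI of 3 or more of the 9 genes was 62.0% (59.0% to 65.0%) in Naïve, against 13.8%, 8.19% and 19.6% in the ConA libraries. T cells gave 58.2%, 12.7%, 11.8% and 16.6%. In NK cells the shares were 55.6%, 27.6%, 36.7% and 40.9%, and in mononuclear phagocytes 77.2%, 47.4%, 25.8% and 50.7%. Naïve was the highest library in each. Erythroid cells gave 5.26%, 2.38%, 0% and 0% of 19, 42, 56 and 3 cells, below the share in every main class of the same library. Their interval in ConA+Veh, 0.06% to 12.6%, overlapped those of B cells, 11.4% to 16.5%, and T cells, 10.4% to 15.4%. The counts of 0 allow up to 6.38% in ConA+TCDD, where the B cell interval begins at 5.51%. They allow up to 70.8% in the 3 cells of ConA+FICZ, too few for this comparison. Cells with 5 or more members were 14.0% of Naïve B cells against 1.07% of those of ConA+Veh, and 12.9% of Naïve T cells against 1.13%.

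**Figure D4:**
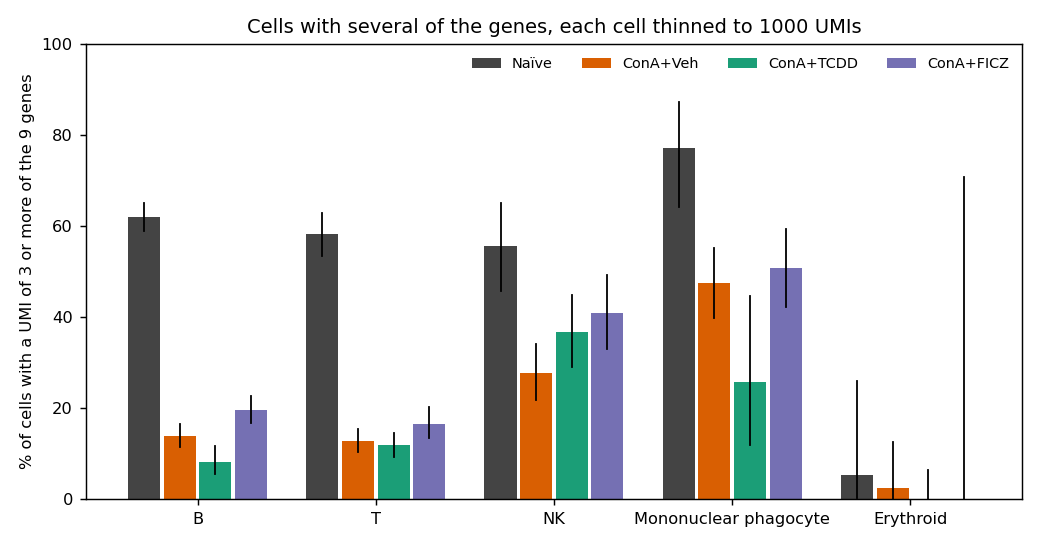
Percentage of cells with a UMI of 3 or more of the 9 genes after thinning to 1000 UMIs per cell, by class and library, with lines for 95% binomial intervals. Naïve bars are the tallest in the 4 main classes, from 55.6% to 77.2%, and erythroid cells, of which ConA+FICZ has 3, stay at or under 5.26%.

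A UMI of *Fos* was found in 36.1%, 4.69%, 3.22% and 11.6% of thinned B cells, and a UMI of *Junb* in 85.8%, 33.1%, 35.1% and 39.4%. The shares for *Fos* without thinning were 54.3%, 12.4%, 10.8% and 26.9%, at median depths of 2135, 4205, 3602 and 3636.5 UMIs. Erythroid cells had a *Fos* UMI in 0%, 2.38%, 1.79% and 0% after thinning, at median depths of 1580, 1134.5, 1225 and 948.5 UMIs before it, and the count of 0 in Naïve allows up to 17.6%. The thinned share with *Fos* was 27.5%, 8.07%, 4.80% and 9.47% in T cells and 25%, 2.80%, 5.33% and 17.4% in NK cells. The thinned *Fos* shares of ConA+Veh and ConA+TCDD in B, T and NK cells lie within the intervals of the erythroid cells of these libraries. These thinned shares are thus not read as expression of *Fos*. Without thinning, a *Fos* UMI was in 32.4% of T cells and 4.69% of erythroid cells of ConA+Veh, which differ in depth. Among NK cells the intervals of ConA+FICZ and ConA+Veh did not overlap, with 17.4% (11.7% to 24.5%) in ConA+FICZ and 2.80% (1.04% to 6.00%) in ConA+Veh.

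*Jun* was found more often in cells with a *Fos* UMI than in cells without one. Among Naïve B cells *Jun* was found in 35.6% (30.8% to 40.7%) of those with *Fos* and in 20.4% (17.4% to 23.7%) of those without. In ConA+Veh B cells the shares were 34.3% (of 35 cells) and 10.5%, and in ConA+FICZ B cells 44.0% (of 84 cells) and 15.0%. The *Fos* share of ConA+Veh B cells lay within the erythroid interval, and whether a *Fos* UMI marks expression there was not tested. Naïve T cells gave 52.9% and 34.4%, and ConA+FICZ T cells 29.2% and 7.19%. The intervals overlapped in the B and T cells of ConA+TCDD and in the T cells of ConA+Veh. *Dusp1* in Naïve T cells was found in 45.4% (36.2% to 54.8%) of cells with *Fos* and 25.5% (20.8% to 30.7%) of cells without. For *Ier2* in Naïve B cells the shares were near each other, at 42.8% and 40.2%. Cells of a class share their library, so these shares are descriptions.

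Lists of related genes were read beside the members, as counts of genes at least 2-fold apart among those with at least 20 UMIs. Of all such genes 19.3%, 14.1%, 14.1% and 9.33% were lower in ConA+Veh than in Naïve in B, T and NK cells and mononuclear phagocytes. In these classes 8.17%, 9.18%, 8.38% and 8.55% were higher. Of the other immediate early genes 11 of 13 were lower and 0 higher in ConA+Veh than in Naïve in B cells, with a median log2 ratio of -1.42. In T cells 5 of 13 were lower, in NK cells 3 of 10 and in mononuclear phagocytes 4 of 12, with 0 higher and medians of -0.34, -0.55 and -0.55. *Zfp36*, which encodes a protein that destabilises mRNA, was 1141, 303, 648 and 1721 CPM in the B, T and NK cells and mononuclear phagocytes of Naïve and 183, 98.3, 132 and 821 in those of ConA+Veh. *Ppp1r15a*, which encodes a phosphatase subunit of the integrated stress response, had log2 ratios of -3.23, -2.13, -0.73 and -0.95 in these classes, and *Klf4*, which encodes a zinc finger factor, had -2.58 in B cells, -0.60 in T cells and -1.55 in mononuclear phagocytes. *Nfkbia*, a target of NF-kB, ranged from -0.20 to 0.53 over the 4 classes.

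AP-1 partners are the *Batf*, *Maf*, *Fosl* and other bZIP genes. ConA+Veh was at least 2-fold lower than Naïve for 1 of 9 in B cells, 0 of 11 in T cells, 0 of 8 in NK cells and 1 of 13 in mononuclear phagocytes, and higher for 0, 2, 1 and 0. The medians were -0.54, 0.43, -0.16 and 0.17. *Fosl2*, whose protein is a Fos relative, was 62.9 CPM in Naïve T cells and 91.9 in ConA+Veh, and *Batf*, whose protein pairs with Jun proteins in lymphocytes, was 72.1 and 97.4. The mean ratio over the classes with enough UMIs was 1.19 for *Fosl1* and -0.70 for *Batf2*, each from 1 class, and -0.81 for *Atf7* over 3. Genes of the MAP kinase pathway had medians of -0.49, -0.42, -0.57 and -0.22 in B, T and NK cells and mononuclear phagocytes, with 1 of 15, 2 of 16, 2 of 12 and 1 of 12 lower and 1, 1, 1 and 0 higher. The lower ones stand beside 19.3%, 14.1%, 14.1% and 9.33% of all genes, so these counts do not set the pathway apart. *Dusp2*, a phosphatase gene related to *Dusp1*, was 603 CPM in Naïve B cells and 114 in ConA+Veh. The kinase gene *Mapk3* averaged -0.68 over the 4 classes, and *Dusp4*, another phosphatase gene, 1.82 over 2.

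Heat shock genes encode chaperones, of which *Hspa1a* and *Hspa1b* are strongly stress-induced and are known, like the immediate early genes, to respond to cell handling. As a list they had medians of 1.07, 0.48, 0.66 and 0.73 for ConA+Veh over Naïve in the 4 classes, with 6 of 11, 4 of 11, 4 of 10 and 3 of 10 higher and 0, 3, 1 and 0 lower by 2-fold. *Hspa1a* went the other way in most classes. It was 149 CPM in Naïve and 83.4 in ConA+Veh in B cells, 121 and 16.7 in T cells, 91.4 and 97.3 in NK cells and 219.8 and 175 in mononuclear phagocytes. *Hspa1b* had log2 ratios of -0.42, -2.67, -1.53 and -0.79. *Hspe1*, a mitochondrial chaperonin gene, averaged 1.36 over the classes, and the small heat shock gene *Hspb1* 1.88 over 2. *Hspa1a* was lower in ConA+TCDD than in ConA+Veh in each main class, with log2 ratios of -1.78, -2.64, -2.53 and -4.39, of which the last rests on 2 UMIs in ConA+TCDD.

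Stimulation genes, which lymphocytes switch on after receptor engagement or while they divide, were higher in ConA+Veh than in Naïve for 5 of 10 genes in T cells and lower for 2, with a median of 0.58. *Mki67*, a gene of dividing cells, was 48.5 and 329 CPM in the T cells of Naïve and ConA+Veh, *Il2ra*, the IL-2 receptor alpha chain, was 36.9 and 103, and *Tnfrsf4*, which encodes the costimulatory receptor OX40, was 58.3 and 166. In T cells these 3 genes and most members lay in opposite directions between Naïve and ConA+Veh. The 3 were named for their large mean ratios in this same comparison, and 2 genes of the list were lower, so the contrast describes chosen genes. The list gave 2 of 7 higher and 1 lower in B cells, 1 of 6 and 0 in NK cells, and 2 of 4 and 0 in mononuclear phagocytes. The early activation marker *Cd69* was 238 and 196 CPM in T cells and 452 and 254 in B cells.

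**Figure D5:**
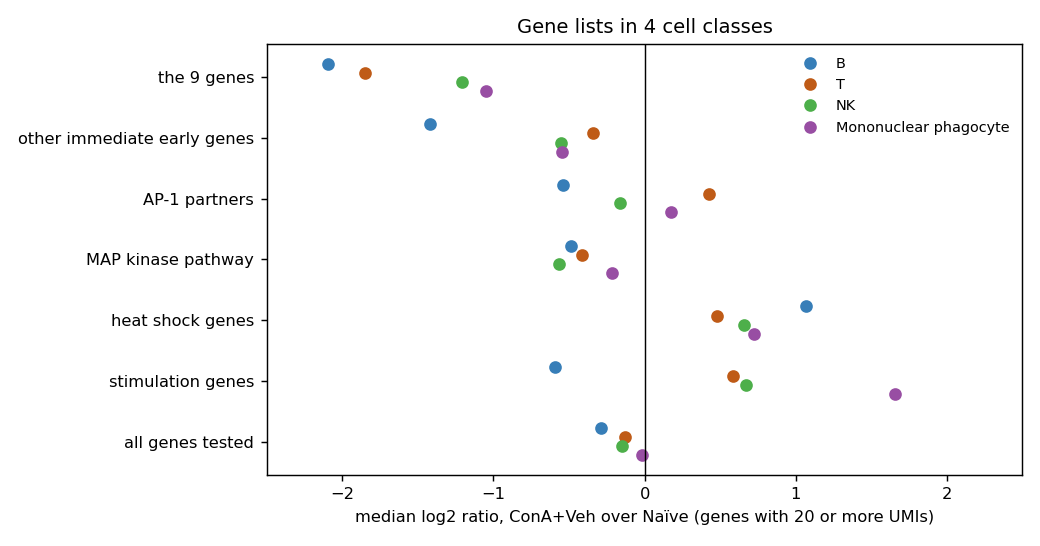
Median log2 ratio of ConA+Veh over Naïve for the 9 genes, for 5 lists of related genes and for all genes tested, with 1 point for each class. In the main classes the 9 genes lie between -2.10 and -1.05 and the heat shock list between 0.48 and 1.07, while all genes lie between -0.29 and -0.01.

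Genes of the lists with large mean ratios were also taken for the comparisons of the ligands. For ConA+TCDD over ConA+Veh the means over the main classes with enough UMIs were -2.83 for *Hspa1a*, -1.50 for *Hspa1b* and -0.94 for *Hspb1* among heat shock genes. They were -0.53 for *Mafk* and 0.44 for *Maf* among AP-1 partners, and 0.77 for *Egr2*, 0.57 for *Gadd45b* and -0.41 for *Ier5* among other immediate early genes. The MAP kinase list gave -0.88 for *Dusp6*, -0.53 for *Srf* and -0.34 for *Dusp4*, and the stimulation list 1.17 for *Cd200*, 0.59 for *Cd86* and 0.42 for *Irf4*. *Srf* encodes the factor SRF, its mean was below 0 and has no interval, and a link to the levels of *Fos* or *Egr1* was not tested. For ConA+FICZ over ConA+Veh the values were -1.02 for *Hspa1a*, -0.56 for *Hspb1* and -0.20 for *Hspa1b*, 1.32 for *Batf2* and -0.58 for *Fosl2*. *Nr4a1*, a nuclear receptor gene induced by antigen receptors, gave -0.63, *Myc* 0.50 and *Ier5* -0.49. The remaining lists gave -0.93 for *Dusp4*, -0.55 for *Dusp5*, -0.49 for *Dusp10*, -0.88 for *Mki67*, 0.59 for *Cd200* and -0.53 for *Il2ra*. *Nr4a1* and *Fos* therefore lay on opposite sides for ConA+FICZ.

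Within a library, cells with a UMI of *Hspa1a* or *Hspa1b* held more UMIs of the 9 genes than cells without. After thinning to 1000 UMIs, the members' UMIs per cell, with against without, were 8.76 (8.18 to 9.37) against 7.42 (7.25 to 7.60) in Naïve B cells. They were 2.94 against 1.90 in B cells of ConA+Veh, 3.67 against 1.56 in those of ConA+TCDD and 3.52 against 2.19 in those of ConA+FICZ. The T cells of the 4 libraries gave 8.98 against 7.59, 2.91 against 1.92, 4.60 against 1.71 and 4.05 against 2.05. The cells without either gene still held more members in Naïve than in any ConA library. In T cells a UMI of *Il2ra*, *Tnfrsf4*, *Tnfrsf9* or *Icos* went with 9.27 (8.59 to 10.0) against 7.43 (7.15 to 7.72) in Naïve and 2.27 (2.09 to 2.45) against 1.74 (1.62 to 1.87) in ConA+Veh, but with 2.13 against 2.13 in ConA+FICZ. *Cd69* went with 9.33 against 7.31 in Naïve T cells and 1.96 against 1.95 in those of ConA+Veh. T cells with *Mki67* held fewer, at 5.44 against 7.79, 1.10 against 2.23, 1.35 against 1.80 and 1.61 against 2.20. The part of cell handling and of receptor stimulation in the level of the 9 genes was not tested.

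The 5 genes whose levels were most like the mean of the members over 25 points of class and library, among 5585 genes ranked, were *Ythdf3* (r = 0.93), *Taok1* (0.90), *Abi1* (0.88), *Gnb2* (0.88) and *Leng8* (0.88), with r computed on log2 of the level plus 10 CPM. The points share libraries and depth, so r is a description. *Ythdf3*, which encodes a reader of methylated RNA, was 29.4, 13.0, 14.4 and 19.7 CPM in B cells, and *Leng8* was 48.9, 22.7, 28.7 and 22.5. Both were highest in Naïve.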

How the data were processed

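Per the labels and the study's methods, the authors made 10x Genomics 5′ libraries, mapped them to mm10 using Cell Ranger 3.0.2 and deposited raw UMI counts by gene and barcode. Here a cell entered a class with at least 2 of its markers and at most 1 of any other class (NK markers were not held against T cells), hepatocytes with 5% and erythroid cells with 10% of UMIs in their markers. Doublets were not called, and cells with several marker sets stayed outside the classes. Levels are class sums over class totals. Intervals at 95% are exact Poisson for levels, Clopper-Pearson for shares and exact binomial for ratios, for which UMIs were at least 20 and cells at least 20 per library. The ratio script was tested on simulated data. The members and lists were chosen with earlier results of these data known. Genes named are the 9 members, the 3 of each list with the largest mean ratio per comparison and the 5 most like the members. A gene that this rule takes is not reported here. *Nfkbia*, *Batf*, *Cd69*, *Clec4g* and *Cdh5*, and the genes that split cells, were added after values were seen. Alternatives changed markers, cell filters, the scale, the fold, the minimum and the thinning. Software was matplotlib 3.10.9, pandas 2.3.3, scipy 1.17.1, numpy 2.4.6, run in Python 3.11.15.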

Additional observations from a re-analysis of the deposited data

Results flagged for a closer look

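Of the members, *Fosb*, *Egr1* and *Atf3* differed by 2-fold or more in opposite directions in different cell classes under the same comparison, with intervals away from 0 on both sides. Classes with under 20 cells in a library were not compared. These differences between classes were not tested, since each condition has 1 library. For *Fosb*, the log2 ratio of ConA+Veh over Naïve was -2.87 in B cells, -1.23 in T cells, -1.87 in NK cells and -2.31 in mononuclear phagocytes, but 1.34 in endothelial cells. For *Egr1* it was -2.10 in B cells and -1.85 in T cells, but 1.87 in endothelial cells. In ConA+Veh both genes had intervals in the main classes that reached those of the erythroid cells. For both genes the opposite side is that of endothelial cells alone, whose *Clec4g* level differed between Naïve and the other libraries. After thinning, a *Fosb* UMI was in 10.3% of endothelial cells of Naïve and 9.84% of those of ConA+Veh. The *Egr1* shares were 15.4% and 31.1% with overlapping intervals. *Atf3* in ConA+TCDD over ConA+Veh was 1.09 in T cells and 2.14 in neutrophils, but -1.34 in NK cells and -1.10 in mononuclear phagocytes. In T and NK cells *Atf3* had intervals in both libraries that reached those of the erythroid cells. In ConA+FICZ over ConA+Veh it was 1.31 in neutrophils and -1.71 in endothelial cells. Without thinning, an *Atf3* UMI was in 6.45% of neutrophils of ConA+Veh and 5.71% of those of ConA+TCDD, so this share did not follow the ratio. The shares were 4.86% and 11.2% in T cells, 5.68% and 2.5% in NK cells and 39.5% and 30.3% in mononuclear phagocytes. The intervals do not cover UMIs that gather in few cells. *Atf3* in ConA+Veh over Naïve also had both signs, with 1.14 (-0.07 to 2.64) in T cells and -1.35 (-1.65 to -1.04) in mononuclear phagocytes, but the former interval includes 0.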

How the results depend on the processing

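The 28 pairs lower in ConA+Veh than in Naïve became 13 when UMIs per cell were left uncorrected for depth, and stayed within 1.5 times of 28 under the other alternatives. These counts do not show changes in the size of a ratio. In cells of 1000 to 4000 UMIs the ratio of *Fos* went from -3.90 to -3.11 in B cells and from -2.47 to -1.94 in T cells. It went from -3.04 to -2.68 in NK cells and from -1.42 to -0.58 in mononuclear phagocytes. *Jun* in that window gave -1.12, -2.84, -0.96 and -0.85 in B, T and NK cells and mononuclear phagocytes. *Ier2* gave -1.36, -0.80, -1.07 and -1.01, and *Egr1* gave -1.34 in B cells and -0.94 in T cells. *Jun* in NK cells and mononuclear phagocytes, and *Ier2* and *Egr1* in T cells, were thus under 2-fold there. The 2 higher pairs became 0 with at least 3 markers, 1 with mixed cells kept and 1 with thinning to 1000 UMIs. For ConA+TCDD over ConA+Veh, the 1 higher pair became 0 as a mean over cells of UMIs per 10000, 0 uncorrected, 0 in cells of 1000 to 4000 UMIs and 2 at 1.5-fold, and the 4 lower pairs became 2 uncorrected, 2 with thinning and 7 at 1.5-fold. For ConA+FICZ over ConA+Veh, the 2 higher pairs became 4 with mixed cells kept, 4 as a mean over cells, 7 in cells of 1000 to 4000 UMIs and 9 at 1.5-fold, and the 0 lower pairs became 1 with at least 3 markers, 1 with the filter on genes and mitochondrial share, 1 uncorrected, 1 in cells of 1000 to 4000 UMIs and 1 at 1.5-fold. That window of depth was chosen after the data had been seen. Of the 31 ratios of ConA+Veh over Naïve with an interval away from 0, 5 changed sign under an alternative. These were *Fosb* in T cells, at 0.22 uncorrected and 0.20 in the window, *Jund* at 0.25 in T and 0.42 in NK cells and *Ier2* at 0.26 in T cells, all uncorrected, and *Dusp1* in mononuclear phagocytes, at 0.29 thinned and 0.58 in the window. For ConA+TCDD over ConA+Veh 3 of 17 did so, *Jun* in T cells, at 0.12 thinned and 0.20 in the window, and in the window *Dusp1* in T cells at 0.05 and *Junb* in mononuclear phagocytes at 0.07. For ConA+FICZ over ConA+Veh 4 of 21 did so, *Dusp1* in mononuclear phagocytes, at -0.04 uncorrected, -0.16 thinned and -0.36 in the window, *Fos* in mononuclear phagocytes at -0.63 and *Jund* in T cells at 0.19 in the window, and *Jund* in NK cells at 0.02 thinned. Among ratios with an interval that includes 0, *Egr1* in mononuclear phagocytes turned to 1.97 thinned and 2.26 in the window and in NK cells to 0.65 uncorrected for ConA+Veh over Naïve, and for ConA+TCDD over ConA+Veh to -1.31 in B cells in the window and 0.15 in mononuclear phagocytes with mixed cells kept. *Jun* in T cells turned from -0.18 to 1.24 in the window for ConA+FICZ over ConA+Veh. The cause was not tested. No paired analysis was possible because each condition has 1 library. Depth limits *Atf3* in lymphocytes, with 6 UMIs in Naïve T cells, and *Egr1* in mononuclear phagocytes, with 5 in ConA+TCDD.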

Other observations

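Plasmacytoid dendritic cells, with 17, 19, 15 and 10 cells in the order Naïve, ConA+Veh, ConA+TCDD, then ConA+FICZ, held *Junb* at 123 (45.2 to 268), 328 (210.2 to 488), 251 (143 to 407) and 28.3 (0.717 to 158) CPM. These intervals lie below those of *Junb* in NK cells of the same libraries. *Jund* in these cells was 513 (332 to 757), 1052.5 (831 to 1315), 939 (717 to 1209) and 538 (324 to 840.4) CPM, with ConA+Veh above Naïve, and *Fos* was 718 (499.99 to 998), 191 (105 to 321), 109.6 (44.1 to 226) and 142 (46.0 to 330.5), with Naïve the highest. *Egr1* had 0, 0, 1 and 0 UMIs. With so few cells and 1 library per condition these values are descriptions.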
